A study of Rattus norvegicus with 6 samples.

Results

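Collagens, fibronectin and the genes of the cells that deposit and remodel them were followed in the renal cortex of rats given N-nitrosodimethylamine (NDMA). NDMA is a small nitrosamine that damages DNA by methylating it once liver and kidney enzymes have activated it. The set holds 10 genes: the growth factor gene Tgfb1, the receptor gene Pdgfrb, the matrix genes Col1a1, Col1a2, Col3a1, Col4a1 and Fn1, the smooth muscle actin gene Acta2, the protease gene Mmp2 and the inhibitor gene Timp2. They were chosen by name, and every array probe designed to one of their RefSeq transcripts was taken, which gave 20 of the 61657 non-control probes. All 10 genes were among the 31915 features tested, a feature being a gene or, where no gene name was matched, a single accession.

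The 2 groups were male Sprague-Dawley rats (Crl:CD(SD)) given NDMA at 4 mg/kg/day for 4 weeks (n = 3) and rats of the same strain, sex and age given water for 4 weeks (n = 3). The animals were bought at 5 weeks of age. Total RNA of the cortex, carrying the dye Cy3, was read on 1-colour Agilent oligonucleotide arrays, 1 array per animal. The tissue is a mixture of cell types, so fewer cells of a type and less RNA per cell cannot be told apart.

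Scarring of the kidney is built from collagens and fibronectin laid down by fibroblasts, pericytes and the myofibroblasts that derive from them. TGF-beta 1 is the growth factor best known for driving these cells to make matrix, and the PDGF receptor beta marks pericytes, mesangial cells and fibroblasts and makes them divide. Gelatinase A, the product of Mmp2, cleaves denatured collagen and the type IV collagen of basement membranes. TIMP-2 inhibits it, and also takes part in its activation at the cell surface together with the membrane protease made from Mmp14.

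Between 43016 and 46248 probes per array were well above background. All 10 proximal tubule markers examined, such as Slc34a1 and Lrp2, were well above background on all 6 arrays, as were 9 of 9 markers of the distal tubule and collecting duct. The 3 controls and NDMA animal 1 shared slide 1, and NDMA animals 2 and 3 were on slide 2, read by the scanner on a different day. Slide 2 held no control, so group and slide were partly confounded. A difference fitted with the slide as a block rests on NDMA animal 1 against the 3 controls. A call lost there cannot be told apart from having fewer treated animals in the comparison. Of the 31915 features 957 passed an adjusted p of 0.05 (3.00%), 805 of them higher (2.52%) and 152 lower (0.476%) after NDMA. The higher ones made up 84.1% of the calls, and 67.0% with normexp background correction. The fit was limma's with Benjamini-Hochberg adjustment over all features, and all adjusted p-values below come from it or, where probes are named, from the same fit over probes. The count was 67 with the slide as a block.

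Of the 10 genes, 1 rose and 0 fell: Mmp2. At an unadjusted p under 0.05 the limma fit gave 4 of the 10, all higher, namely Mmp2, Tgfb1, Timp2 and Fn1 (18.8% of all features in either direction, 8.50% higher). In these same 4 genes every NDMA animal lay above every control, which held for 11.1% of all features, and in 0 of the 10 did every NDMA animal lie below every control (16.5% of all features, or 27.6% for both directions). The median log2 difference of the 10, NDMA minus water control, was 0.17, against -0.045 over all features. The collagens, Pdgfrb and Acta2 overlapped between the groups.

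**Figure D1:**
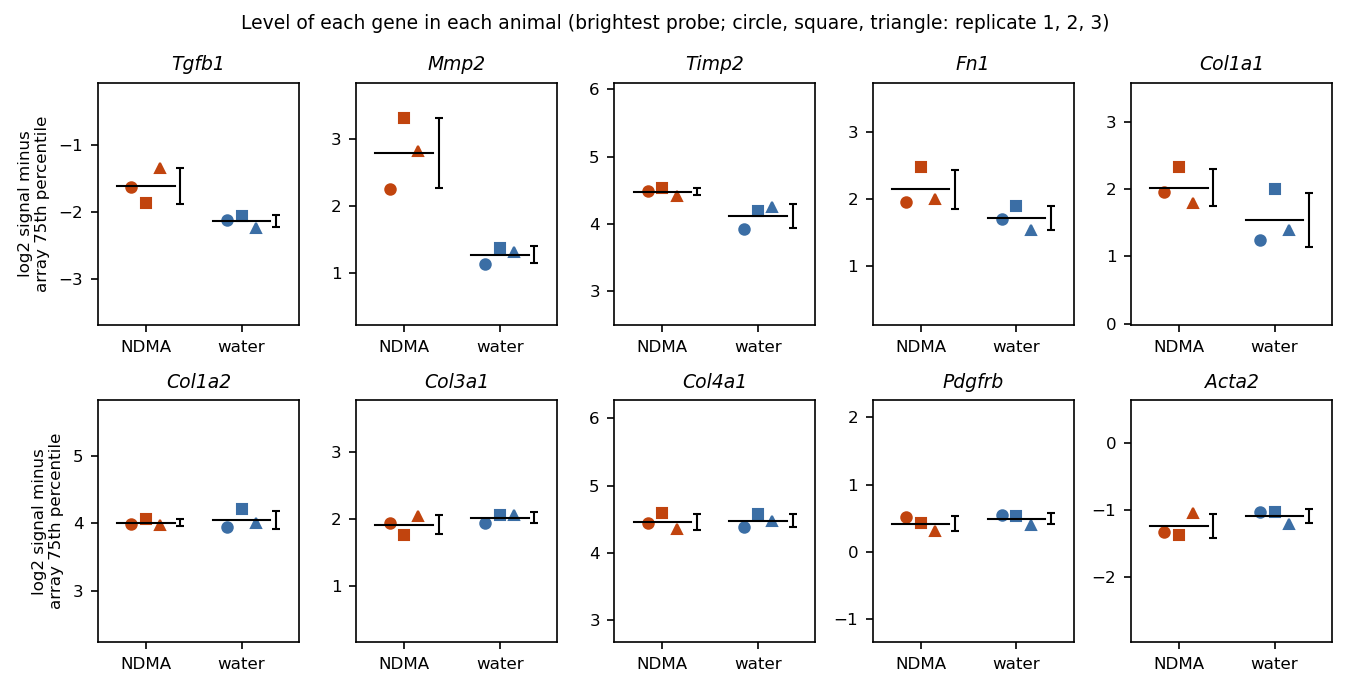
Level of each of the 10 genes in each animal, read by its brightest probe, as log2 signal minus the 75th percentile of the array. NDMA animals stand left of water controls, symbols mark replicates 1 to 3, the horizontal line is the group mean and the bar beside it is ± 1 SD (n = 3). Every panel spans the same range of log2 units. The groups lie apart for Tgfb1, Mmp2, Timp2 and Fn1 and overlap for the other genes.

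Regions around the annotated start were taken from the RefSeq promoter table of rat assembly GRCr8, which held 5 of the 10 genes: Tgfb1, Timp2, Col1a2, Col4a1 and Acta2. Those of Tgfb1 and Timp2, whose NDMA animals all lay above the controls, are shown with those of Col1a2 and Acta2, a pair of classical reporters of scar-forming cells whose groups overlapped. Each runs 5′ to 3′ on the gene's strand from 250 bases before to 50 bases after the start. Capitals mark matches on either strand to TATAA (the TATA box), to CCAAT (the box of that name) and to GGGCGG (the Sp1 motif).
Tgfb1, chr1:90324062-90324361, plus strand: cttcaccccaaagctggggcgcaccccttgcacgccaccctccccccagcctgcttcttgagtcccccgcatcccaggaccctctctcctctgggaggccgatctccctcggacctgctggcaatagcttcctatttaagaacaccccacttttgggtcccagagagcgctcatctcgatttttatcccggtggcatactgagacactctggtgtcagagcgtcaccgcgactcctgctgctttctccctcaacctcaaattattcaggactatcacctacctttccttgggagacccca
Timp2, chr10:104089165-104089464, minus strand: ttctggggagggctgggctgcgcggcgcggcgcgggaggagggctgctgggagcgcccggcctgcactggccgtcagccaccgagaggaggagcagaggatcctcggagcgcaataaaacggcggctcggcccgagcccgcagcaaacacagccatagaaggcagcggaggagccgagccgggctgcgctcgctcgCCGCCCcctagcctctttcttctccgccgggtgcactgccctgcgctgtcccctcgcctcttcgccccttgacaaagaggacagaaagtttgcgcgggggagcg
Col1a2, chr4:33518307-33518606, plus strand: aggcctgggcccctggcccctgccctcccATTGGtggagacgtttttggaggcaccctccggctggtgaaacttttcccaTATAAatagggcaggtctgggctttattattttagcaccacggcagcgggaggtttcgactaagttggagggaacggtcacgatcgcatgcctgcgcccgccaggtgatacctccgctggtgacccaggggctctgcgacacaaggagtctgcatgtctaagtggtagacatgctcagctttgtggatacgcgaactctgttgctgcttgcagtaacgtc
Acta2, chr1:241172454-241172753, minus strand: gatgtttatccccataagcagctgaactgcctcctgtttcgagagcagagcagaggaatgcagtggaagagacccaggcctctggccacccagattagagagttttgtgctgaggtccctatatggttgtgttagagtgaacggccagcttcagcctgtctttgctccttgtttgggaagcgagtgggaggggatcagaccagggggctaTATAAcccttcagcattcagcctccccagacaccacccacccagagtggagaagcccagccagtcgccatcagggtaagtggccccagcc

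The Acta2 window held 1 TATAA, starting 40 bases before the annotated start, and the Col1a2 window 1 TATAA on the gene strand, 170 bases before it, with 1 CCAAT on the opposite strand. The Timp2 window held 1 GGGCGG on the opposite strand, and the Tgfb1 window held 0 matches to the 3 motifs. No matches overlapped in these windows. Among all 33469 promoters of this length, TATAA was found in 26.2%, CCAAT in 37.5% and GGGCGG in 33.1%. G and C made up 57.7% of the Tgfb1 window, 70.3% of Timp2, 57% of Col1a2 and 56% of Acta2, against a median of 51.7% over all promoters. These matches describe the letters of the windows and were not tested as sites.

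Tgfb1 encodes the ligand TGF-beta 1, made as a latent protein by many cells, including macrophages and injured tubules. The normalised log2 signal of its 1 probe was -1.63, -1.87 and -1.35 in NDMA animals 1 to 3, against -2.12, -2.07 and -2.24 in controls 1 to 3. All NDMA animals were above all controls, and NDMA animal 3 was the highest. The log2 difference was 0.53 ± 0.14 SE (95% interval 0.18 to 0.88, 1.44-fold, n = 3 per group), and it did not pass (adjusted p = 0.135). On slide 1, NDMA animal 1 lay 0.51 above the control mean.

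The list of TGF-beta pathway genes, Tgfb1 included, gave 0 calls in limma among 26 tested of 31 listed, with 4 higher and 0 lower at an unadjusted p under 0.05 and a list median of 0.060. Tgfb1 was 1 of these 4. Ccn2, which encodes connective tissue growth factor and is induced by TGF-beta and by stretch, had 3.20, 3.65 and 2.09 in NDMA animals and 1.71, 1.504 and 2.08 in controls. NDMA animal 3 lay barely above control 3 and the other NDMA animals above all controls, a log2 difference of 1.21 ± 0.40 (adjusted p = 0.188).

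Tgfbr1 and Tgfbr2, the signalling receptors of TGF-beta, had log2 differences of 0.10 ± 0.09 (adjusted p = 0.547) and -0.12 ± 0.08 (adjusted p = 0.439) by their brightest probes, and another Tgfbr2 probe was above 0 at 0.094. The pathway's range ran between Ltbp2, which encodes a microfibril-associated relative of the latent TGF-beta binding proteins, at -0.73 ± 0.41, and the ligand gene Tgfb2 at 1.78 ± 0.93. For Tgfb2 the NDMA signals were -3.25, -0.50 and -1.06 and the control signals -1.79, -4.48 and -3.89, so that the groups overlapped (adjusted p = 0.351).

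Pdgfrb was read by 2 probes. The brighter had signals of 0.53, 0.43 and 0.31 in NDMA animals, against 0.55, 0.53 and 0.40 in controls, which overlapped. Its log2 difference was -0.070 ± 0.094 (95% interval -0.30 to 0.16, adjusted p = 0.715), and the other probe's was 0.050 ± 0.112. Of the 7 genes of PDGF ligands and receptors 0 passed in limma, with 1 higher and 0 lower at an unadjusted p under 0.05. They lay between Pdgfb, a ligand made by endothelium, at -0.30 ± 0.18 (adjusted p = 0.416) and Pdgfd, a ligand specific for the beta receptor, at 0.45 ± 0.15 (adjusted p = 0.191).

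Collagen transcripts did not pass in any of their 10 probes. Col1a1, which encodes the major chain of type I collagen, had signals of 1.95, 2.32 and 1.79 in NDMA animals and 1.24, 2.00 and 1.39 in controls by its brightest probe. NDMA animals 1 and 3 were below control 2, and the SD was 0.40 among the controls. Its log2 difference came to 0.48 ± 0.23 (95% interval -0.084 to 1.04, adjusted p = 0.324). Its other probes gave 0.21 ± 0.20 and 0.31 ± 0.13, so all 3 were above 0 and none passed over probes (adjusted p = 0.605 and 0.269 for these 2).

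Col1a2, the partner chain of type I collagen, did not follow Col1a1 in sign. Its brighter probe had 3.99, 4.07 and 3.98 in NDMA animals, against 3.95, 4.21 and 4.00 in controls. The log2 difference of this probe was -0.041 ± 0.097. Its 95% interval reached from -0.28 to 0.19. For this probe, and in this fit without the slide, that leaves out a rise above 1.14-fold and a fall beyond 1.21-fold. With slide as a block the difference of this probe was -0.062 with a larger SE, so these bounds do not carry over. The dimmer Col1a2 probe had 0.92, 0.86 and 1.17 in NDMA animals and 1.15, 1.24 and 1.19 in controls. Its difference was -0.21 ± 0.11 (95% interval -0.46 to 0.045, adjusted p over probes 0.344), so a larger fall lay within its interval. The difference between Col1a1 and Col1a2 was itself not tested.

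Col3a1, the chain of type III collagen, which is laid down early in scars, had 1.94, 1.77 and 2.04 in NDMA animals and 1.94, 2.07 and 2.07 in controls. NDMA animals 1 and 3 lay between the controls, animal 1 barely above control 1, and NDMA animal 2 lay below them. The log2 difference was -0.11 ± 0.10 (95% interval -0.35 to 0.14, adjusted p = 0.592). Col4a1, a chain of the type IV collagen of basement membranes, had 4 probes with differences between -0.018 and 0.046. By the brightest, NDMA animals had 4.45, 4.59 and 4.35 and controls 4.38, 4.58 and 4.48, a difference of -0.018 ± 0.102 (95% interval -0.26 to 0.23, adjusted p = 0.939). Of the 10 tested genes of fibrillar collagens and partners 0 passed, with 0 at an unadjusted p under 0.05 and a median of -0.010, and likewise 0 of 10 basement membrane genes, with 0 at an unadjusted p under 0.05 and a median of -0.056.

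The lowest of the basement membrane genes was Lamb3, which encodes a laminin chain of epithelia, at -0.33 ± 0.20 (adjusted p = 0.423). Collagen synthesis and crosslinking genes gave 0 calls among 19 tested, with 0 at an unadjusted p under 0.05 and a median of 0.041. Crtap, which belongs to the collagen prolyl 3-hydroxylation complex, was the lowest at -0.24 ± 0.10 (adjusted p = 0.268), and Loxl4, a lysyl oxidase relative that crosslinks collagen, the highest at 0.68 ± 0.33 (adjusted p = 0.317). For 8 of the 18 listed genes of fibrillar collagens and partners and 10 of the 20 basement membrane genes no probe was matched by name, so these lists are incomplete.

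Fn1 encodes fibronectin, the adhesive glycoprotein on which collagen fibres assemble. Its brightest probe had 1.96, 2.47 and 2.00 in NDMA animals and 1.71, 1.90 and 1.54 in controls, and the groups did not overlap. That probe differed by 0.43 ± 0.17 on the log2 scale (95% interval 0.019 to 0.84, 1.35-fold, adjusted p = 0.250). The second probe had 1.17, 1.45 and 1.42 in NDMA animals, against 1.01, 1.07 and 0.77 in controls (0.40 ± 0.12, adjusted p over probes 0.172). The dimmest probe had -3.94, -3.98 and -3.88 in NDMA animals and -4.50, -4.50 and -4.41 in controls, and it alone passed over probes (0.53 ± 0.08, 1.45-fold, adjusted p = 0.0230). All 3 probes had every NDMA animal above every control, which held for 10.9% of the 43118 probes tested (16.0% for all below, 26.9% for both directions), and the sizes lay within 1 SE of the brightest probe's difference. The dimmest probe read intensities of only 68.4 to 88.0 in NDMA animals and 44.0 to 48.2 in controls, and with normexp its difference was 0.17 (adjusted p = 0.242). By the brightest probe, NDMA animal 1 on slide 1 lay 0.24 above the control mean. NDMA animals 2 and 3 on slide 2 lay 0.76 and 0.29 above it. With slide as a block the brightest, second and dimmest probes differed by 0.24, 0.22 and 0.52.

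Among 21 tested matrix glycoprotein and proteoglycan genes 0 rose and 1 fell, with 3 higher and 4 lower at an unadjusted p under 0.05 in limma. The gene that fell was Mfap2, which encodes a glycoprotein of elastic microfibrils. Mfap2 had signals of -3.97, -4.21 and -3.95 in NDMA animals, all below the controls at -3.20, -3.24 and -3.27. The log2 difference was -0.81 ± 0.10 (1.75-fold lower, adjusted p = 0.0136), and with slide as a block it did not pass (-0.74, adjusted p = 0.154), nor without control 1 (adjusted p = 0.0596) or control 2 (0.0503). The Mfap2 signals were low, and with normexp its difference was smaller, at -0.58, and still passed in limma (adjusted p = 0.0208). The highest member was Spp1, the osteopontin gene of injured tubules and macrophages, with 3.81, 5.97 and 4.04 in NDMA animals, against 3.24, 3.44 and 3.06 in controls. NDMA animal 2 stood apart, and the difference of 1.36 ± 0.55 did not pass (adjusted p = 0.262).

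Mmp2 was higher in NDMA-treated rats by both of its probes. The brighter had signals of 2.25, 3.30 and 2.81 in NDMA animals 1 to 3, against 1.14, 1.38 and 1.31 in controls 1 to 3. The deposited intensities behind them were 5014, 12899 and 9119 in NDMA animals and 2304, 2585 and 2546 in controls. Every NDMA animal lay above every control, NDMA animal 2 the highest and NDMA animal 1 the lowest of the treated. Means were 2.79 ± 0.52 in NDMA-treated rats and 1.28 ± 0.12 in water controls (SD, n = 3 each). The log2 difference was 1.51 ± 0.26 SE (95% interval 0.89 to 2.13, 2.85-fold, adjusted p = 0.0373).

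The dimmer Mmp2 probe had -0.40, 0.76 and 0.30 in NDMA animals and -1.33, -1.20 and -1.26 in controls. It placed the animals of each group in the same order and gave a log2 difference of 1.48 ± 0.28 (2.79-fold, adjusted p over probes 0.0490). Of the 20 probes, 3 rose over probes, against 2.50% of all probes tested (2.99% in either direction, 0.485% lower): both of Mmp2 and the dimmest of Fn1. With slide as a block none of these 3 passed over probes (adjusted p = 0.205 and 0.219 for Mmp2 and 0.203 for Fn1). By size, Mmp2 was number 123 of the 485 named genes that differed.

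**Figure D2:**
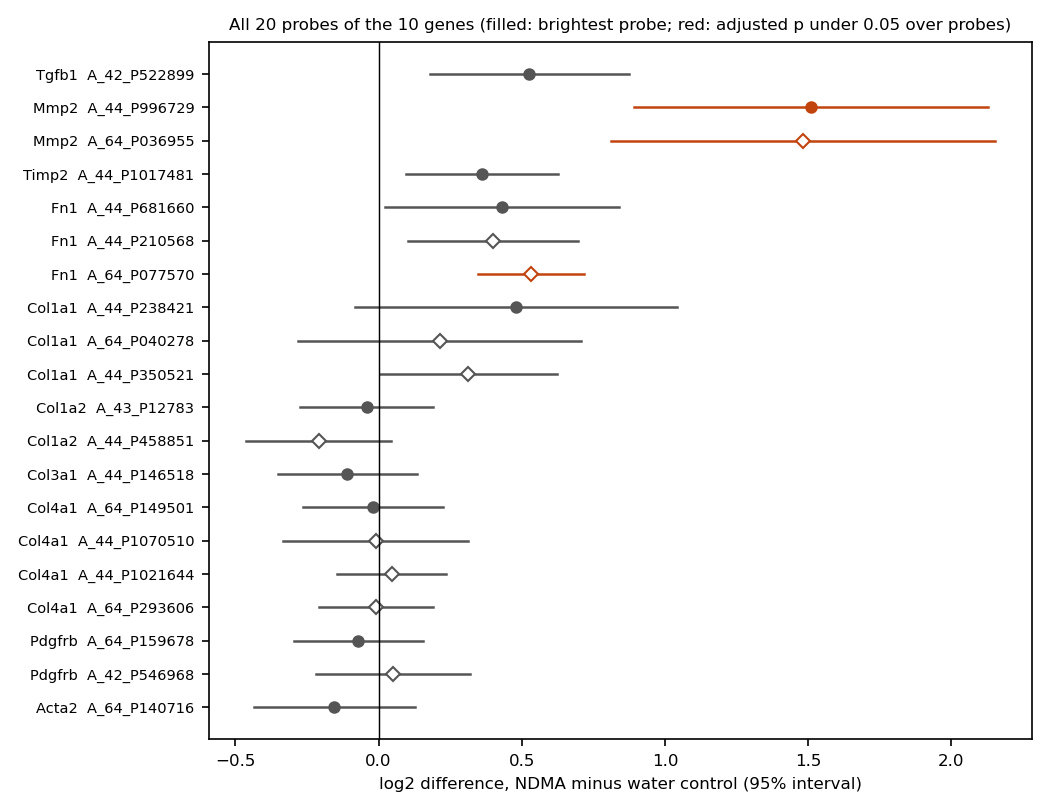
Log2 difference, NDMA minus water control, of all 20 probes with its 95% interval from the fit over probes. Filled circles are the brightest probe of a gene, open diamonds its other probes, and red marks an adjusted p under 0.05. Both Mmp2 probes lie near 1.5, the 3 Fn1 probes between 0.40 and 0.53, and the Col1a2, Col3a1, Col4a1, Pdgfrb and Acta2 probes around 0.

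NDMA animal 1, which shared its slide with the controls, lay 0.97 above the control mean for Mmp2 (1.96-fold), and animals 2 and 3 on the other slide lay 2.02 and 1.53 above it (4.06-fold and 2.90-fold). With slide as a block Mmp2 did not pass (0.97, adjusted p = 0.205). Among the 6 fits without 1 animal it was kept only in that without NDMA animal 1 (1.78, adjusted p = 0.0212), with a lowest difference of 1.25 without NDMA animal 2. The adjusted p was 0.0605 without NDMA animal 2, 0.116 without NDMA animal 3, and 0.124, 0.101 and 0.0987 without controls 1, 2 and 3.

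**Figure D3:**
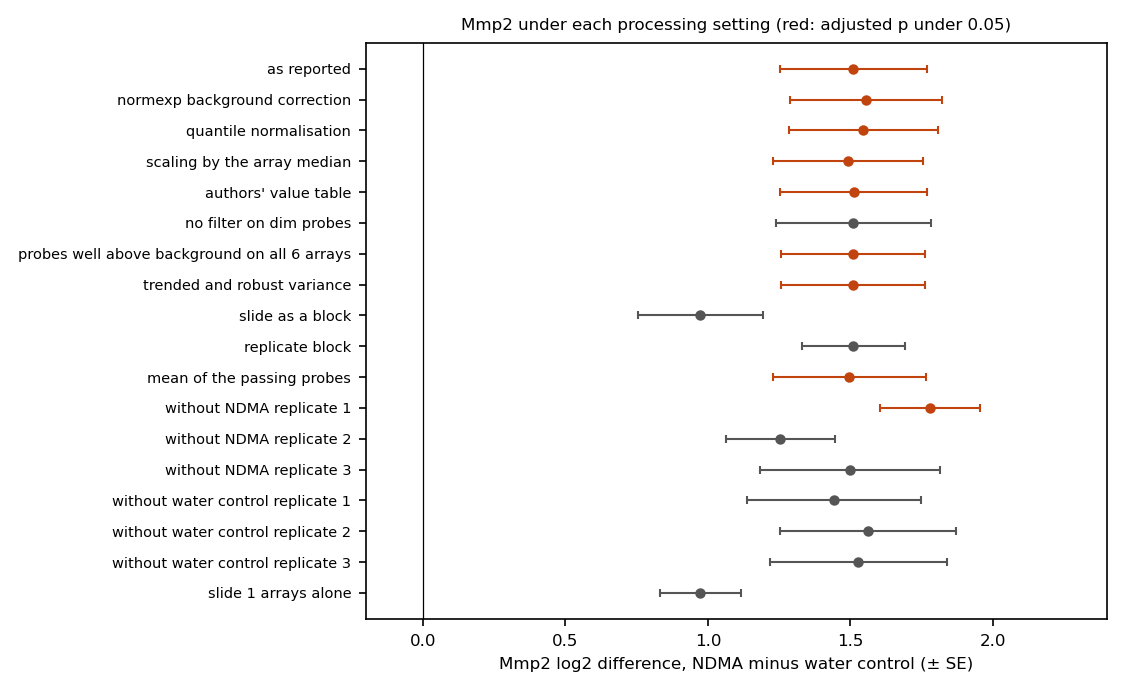
Log2 difference of Mmp2, NDMA minus water control, with ± 1 SE, as reported, under each alternative processing, without each animal in turn and on the 4 arrays of slide 1 alone. Red marks an adjusted p under 0.05. All estimates lie above 0, between 0.97 and 1.78, and the lowest are those that rest on NDMA animal 1 against the controls of its slide.

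The other matrix metalloproteinase genes gave 0 calls in limma among the 12 tested besides Mmp2. At an unadjusted p under 0.05 the list of 13 had 4 higher and 0 lower, Mmp2 among them. Mmp7 and Mmp19 were also among these 4, but were well above background in only 0 and 2 of the 3 controls. Both entered the test only through the NDMA animals, so this count depends in part on the filter. The p-value of Mmp7 rests on controls at background level. With the filter on all 6 arrays, 11 genes of the list were tested, without Mmp7 and Mmp19. Mmp14, whose membrane-bound product activates gelatinase A, had 2.25, 1.99 and 1.64 in NDMA animals and 2.14, 2.32 and 2.00 in controls. The groups overlapped, with a difference of -0.19 ± 0.17 (adjusted p = 0.582). Mmp9, which encodes the other gelatinase, had -4.01, -3.60 and -2.13 in NDMA animals, against -3.26, -3.45 and -3.09 in controls. NDMA animal 3 was the highest and NDMA animal 1 the lowest of all 6, and the difference was 0.020 ± 0.466 (adjusted p = 0.986).

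Mmp7, which encodes matrilysin of injured epithelium, was well above background in all 3 NDMA animals and in no control, at least 1.76-fold higher after NDMA. Its signals were -5.36, -4.64 and -5.84 in NDMA animals and -8.38, -6.33 and -7.91 in controls, and it did not pass (adjusted p = 0.111). The lowest of the list was Mmp28, which encodes epilysin, at -0.35 ± 0.18 (adjusted p = 0.339). A further 7 listed metalloproteinase genes had probes but did not reach the detection filter in either group.

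Timp2 had signals of 4.49, 4.53 and 4.42 in NDMA animals and 3.92, 4.19 and 4.26 in controls by its 1 probe. All NDMA animals lay above all controls, with a spread of 0.056 (SD) in NDMA-treated rats and 0.18 in controls. The log2 difference was 0.36 ± 0.11 (95% interval 0.094 to 0.63, 1.28-fold, adjusted p = 0.167). On slide 1 NDMA animal 1 lay 0.37 above the control mean, close to the difference over all animals.

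Of the 5 inhibitor genes tested 1 rose and 0 fell, and at an unadjusted p under 0.05 there were 2 higher and 1 lower. Timp1, whose product inhibits most matrix metalloproteinases, rose 1.72-fold, with 1.95, 2.21 and 2.07 in NDMA animals, against 1.25, 1.31 and 1.33 in controls (0.78 ± 0.09, adjusted p = 0.0134). Within slide 1 its difference was 0.66, and with slide as a block Timp1 did not pass (adjusted p = 0.140), nor without NDMA animal 3 (0.0537) or control 1 (0.0593). Timp3, whose product binds to the matrix, had 0.63, 0.62 and 0.64 in NDMA animals and 0.91, 0.99 and 0.87 in controls. All NDMA animals lay below all controls for Timp3, and the difference of -0.29 ± 0.08 did not pass (adjusted p = 0.121). Timp4 was the lowest of the 5 inhibitor genes tested, at -0.39 ± 0.19 (adjusted p = 0.323).

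Acta2, the actin of smooth muscle and myofibroblasts, had -1.32, -1.37 and -1.04 in NDMA animals and -1.03, -1.03 and -1.20 in controls. NDMA animal 3 lay among the controls and the others below them, and the log2 difference was -0.16 ± 0.12 (adjusted p = 0.503). Its 95% interval, from -0.44 to 0.13, leaves out a rise above 1.09-fold only in this fit, which does not model the slide. With slide as a block the Acta2 difference was -0.23 with a larger SE, so this bound does not carry over.

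Of 22 tested genes of fibroblasts, pericytes and smooth muscle 4 rose and 0 fell, and at an unadjusted p under 0.05 limma gave 7 higher and 3 lower, with a median of 0.0090. The genes that rose were Vim, the intermediate filament of mesenchymal cells and leukocytes (1.63-fold, 0.70 ± 0.11, adjusted p = 0.0315), S100a4, a calcium-binding protein of fibroblasts and leukocytes (1.87-fold, 0.90 ± 0.15, adjusted p = 0.0341), Mcam, an adhesion molecule of pericytes and endothelium (1.64-fold, 0.71 ± 0.13, adjusted p = 0.0416), and Fap, a protease of activated fibroblasts. Fap was well above background in 0 of 3 controls and in 3 of 3 NDMA animals, where it was at least 1.21-fold higher (adjusted p = 0.0100). With normexp Fap had a difference of 0.25 and lost its call (adjusted p = 0.264). Fap entered the test only through the NDMA animals, so its p-values rest on controls at background level. With the filter on all 6 arrays, 3 of 21 genes of the list rose, and Fap was not tested. The slide as a block ended the calls of Vim, S100a4 and Mcam (adjusted p = 0.265, 0.184 and 0.326). Of the 6 fits without 1 animal, Vim passed only in that without NDMA animal 1, S100a4 only without control 2 and Mcam only without control 3, with adjusted p up to 0.108, 0.119 and 0.130 in the others. Myocd, the transcriptional coactivator of smooth muscle genes, was the lowest member at -0.68 ± 0.28 (adjusted p = 0.263).

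Of 13 tested receptor genes for matrix, 2 rose and 0 fell: the hyaluronan receptor Cd44 (1.56 ± 0.17, adjusted p = 0.0111) and Itga4, an integrin chain of leukocytes that binds fibronectin (1.19 ± 0.14, 2.28-fold, adjusted p = 0.0118). With slide as a block both differed by less and did not pass (adjusted p = 0.106 and 0.136), Itga4 did not pass without NDMA animal 3 (0.0518), and 1 of 4 Cd44 probes was at -0.097. Itga4 had -1.92, -1.60 and -1.76 in NDMA animals, all above the controls at -3.16, -2.76 and -2.92. The lowest was Itga1, a chain of a collagen receptor, at -0.43 ± 0.22 (adjusted p = 0.349). The 10 lists together held 142 tested genes, of which 8 rose and 1 fell, with a median of 0.0064. Without the 10 genes of the set these were 7 and 1 of 132, or 5.30% higher against 2.52% of all features, with Fap among the 7. The list genes all have a gene name, which many of the features lack. In either direction 485 of the 12175 named features passed, against 957 of all 31915, so the share over all features is not a like comparison. Among probes well above background on all 6 arrays, which leave Fap out, 6 of 129 rose (4.65%, against 2.34% of all features), and with slide as a block 1 of 132 did, which was Fap.

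**Figure D4:**
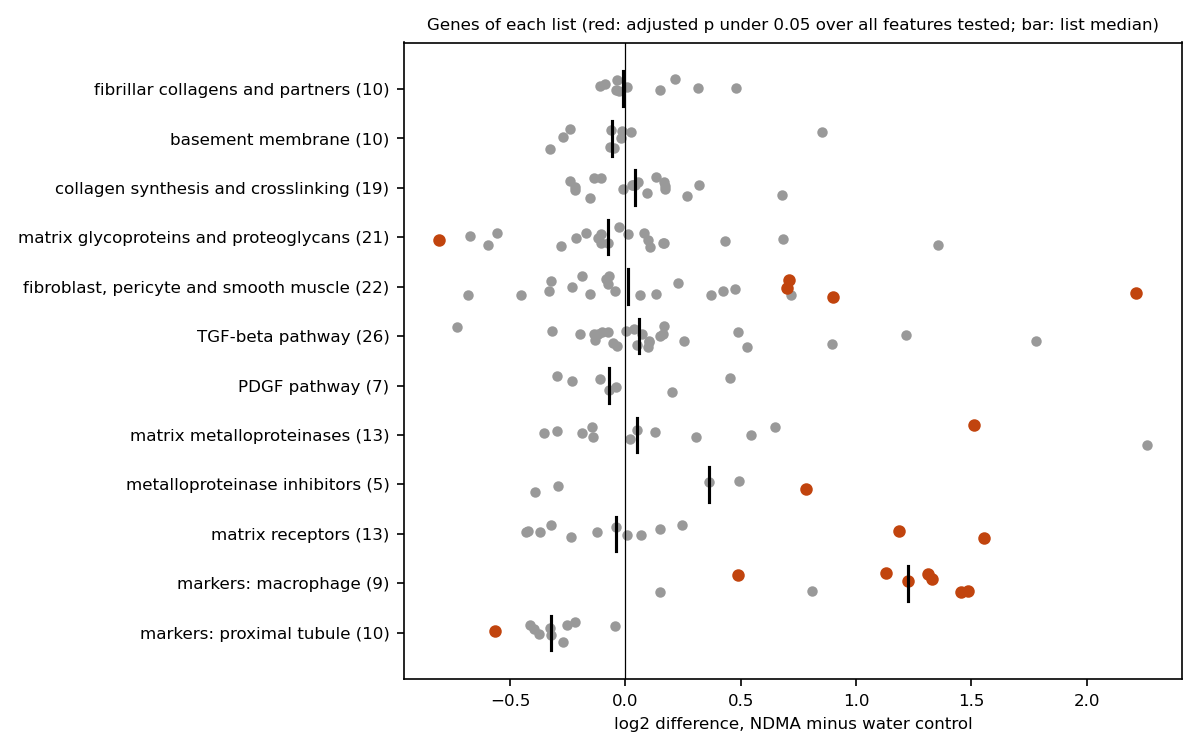
Log2 difference, NDMA minus water control, of every tested gene of the 10 matrix and fibroblast lists and of the macrophage and proximal tubule markers, with the number tested in brackets. Each point is a gene, red marks an adjusted p under 0.05, and the black bar is the list median. The collagen and basement membrane lists centre near 0 with no red point, and the macrophage markers lie to the right, with a median of 1.23.

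Most of the macrophage markers were also higher in NDMA-treated rats than in controls. Of 9 tested, all above background on all 6 arrays, 7 rose and 0 fell, beside 2.52% higher and 0.476% lower of all features. The scaled signal summed over the 9 ran from 229 to 250 in NDMA-treated rats, against 85.2 to 116 in controls. The defining marker Cd68 was 2.80-fold higher, Adgre1 had a difference of 0.15 (adjusted p = 0.661), and Cd163 did not reach the detection filter. The part of macrophages in the differences of the matrix genes was not tested. With slide as a block 0 of the 9 macrophage markers passed, at a median of 1.15, and without 1 animal 4 to 6 did (6, 5 and 4 without NDMA animals 1, 2 and 3, and 4, 4 and 6 without controls 1, 2 and 3). Endothelial markers (0 of 9 passed, 0 at an unadjusted p under 0.05, median -0.0085) and mesangial markers (0 of 7 passed, 0 higher and 1 lower at an unadjusted p under 0.05, median -0.083) gave no call in limma. Proximal tubule markers had a median of -0.32. Of these 10 markers 1 fell, Lrp2 (adjusted p = 0.0448), a call lost in each of the 6 fits without 1 animal (adjusted p up to 0.145). At an unadjusted p under 0.05 limma gave 0 higher and 7 of 10 lower (18.8% of all features in either direction). In 9 of the 10 proximal tubule markers every NDMA animal lay below every control (16.5% of all features). Their summed signal ran from 1958 to 2297 in NDMA-treated rats, against 2579 to 2763 in controls, and its part in the matrix results was not tested. Distal tubule and collecting duct markers gave 0 calls in 9, with 0 higher and 2 lower at an unadjusted p under 0.05 in limma and a median of -0.18. Their summed signal ran from 444 to 458 in NDMA-treated rats, against 487 to 615 in controls, which did not overlap, and its part was likewise not tested.

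The profile of Mmp2 over the 6 arrays was set against those of all named genes, as log2 signals minus the control mean. The 5 nearest were Xcr1, a chemokine receptor of dendritic cells, with a root mean square difference of 0.0853, Nuf2, a kinetochore component, with 0.115, the hyaluronan receptor Cd44, with 0.140, Phlda3, a p53 target, with 0.144, and the mitotic kinase Plk1, with 0.145. They were picked for this likeness, so the order of their animals follows from the choice. Xcr1 was well above background in 0 of 3 controls, so its distance rests on control signals at background level, and the difference of Phlda3 between the groups did not pass (adjusted p = 0.0735). Cd44, for example, lay 1.26, 1.90 and 1.51 above its control mean in NDMA animals 1 to 3, against 0.97, 2.02 and 1.53 for Mmp2.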

How the data were processed

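Per the file headers, the authors extracted spot intensities with Agilent Feature Extraction (10.7.1.1; 10.7 per the submitters' processing notes), and the deposited processed intensity is background-subtracted and detrended within each array, with no scaling between arrays. The deposited linear ratio of the authors' value table matched the processed intensity over each array's 75th percentile (largest log2 difference 0.00174 over values above 0.1), with column medians from 0.110 to 0.115. No step that centres genes was found in it.

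Processed intensity was taken to log2 and reduced by the 75th percentile over non-control probes, which ran from 993 to 1310. Probes well above background on all 3 arrays of a group were kept (43118), outlier spots were set missing (18 values, 0 in the set), and the brightest probe stood for a gene. Symbols were taken from RefSeq, assembly GRCr8 (27348 of 29123 NM accessions matched). The array's annotation is on rn4, so no probe coordinates are given. The test was limma 3.58.1 (lmFit and eBayes under R 4.3.3, two-sided, threshold 0.05), over features and again over probes, and the fit was tested on simulated data. With 3 animals a group, the smallest p of an exact permutation test is 0.1. The number of arrays limits the precision. A gene not well above background in a group has a bound only, its mean against the lowest signal well above background on each array. Probe levels of different genes are not compared.

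The members, lists, alternatives and tests were chosen with earlier results of these data known. Besides the members, genes named are those of each list that passed, its lowest and highest, fixed partners (Mmp9, Mmp14, Timp1, Timp3, Tgfbr1, Tgfbr2, Ccn2) and the 5 profiles nearest to Mmp2; some genes under this rule are not reported here. Of the marker lists, a few defining markers are named, chosen after their values were seen. The fit did not treat replicate numbers as pairs. Alternatives were background correction, normalisation, filter, variance model, probe summary, slide and replicate blocks, and leaving out each animal.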

Additional observations from a re-analysis of the deposited data

How the results depend on the processing

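Of the 10 alternatives to the processing, the Mmp2 call was kept in 7, with differences from 0.97 to 1.55 over all 10 and adjusted p from 0.0244 to 0.205. It was lost with no filter on dim probes (adjusted p = 0.0968), with the slide as a block and with the replicate number as a block (adjusted p = 0.0588). Genes of the set past the threshold in limma were then 0, with 3, 1 and 5 at an unadjusted p under 0.05, and the features that differed numbered 371, 67 and 351. On slide 1 alone, chosen after seeing the data, 0 features and 0 genes of the set passed, with 3502 and 2 at an unadjusted p under 0.05. Over all features, the deviations of same-numbered animals from their group means were nearly uncorrelated (correlations of 0.039, -0.048 and 0.026). With 3 animals a group, these correlations cannot settle whether the numbers pair animals. Without 1 animal the features numbered 364 to 749 (749, 458 and 367 without NDMA animals 1, 2 and 3, and 364, 520 and 505 without controls 1, 2 and 3) and the genes of the set 0 to 1. Signs near 0 changed: with quantile normalisation Col1a2 was 0.026 and Col4a1 0.045, with the mean of the probes Col4a1 was 0.0023, and with the slide as a block, or on slide 1 alone, Pdgfrb was 0.034. Among probes, 1 of Col4a1 was 0.022 with normexp and another 0.020 with the slide as a block, where the Pdgfrb probes were -0.033 and 0.034. Without 1 animal Col1a2 ran from -0.092 to 0.037 and Col4a1 from -0.083 to 0.039. The cause was not tested. Tgfb1, Timp2, Fn1 and Col1a1 were above 0 and Acta2 and Col3a1 below 0 in all alternatives and all fits without 1 animal, and none of these 6 passed in any.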
